A study of Sus scrofa with 12 samples.

Results

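The 14-3-3 genes of the pig (Sus scrofa) were examined in a direct comparison of hatched with early blastocysts. The members were the probes that GEO's platform annotation names SFN, YWHAB, YWHAE, YWHAG, YWHAH, YWHAQ or YWHAZ, which found 6 of the 7 genes, among 12627 genes named on 2 array designs, by 26 of 89014 probes. The first array set held 12 of them among 43794 probes, namely 3 of SFN, 4 of YWHAB, 2 of YWHAZ and 1 each of YWHAE, YWHAH and YWHAQ. The second held 14 among 45220, namely 1 of SFN, 8 of YWHAB, 4 of YWHAZ and 1 of YWHAQ. No probe used here was named YWHAG, and on the second array set none was named YWHAE or YWHAH. The family was chosen by the log2 ratio of SFN on the second array set, which had been seen to be among the largest there. The ratios of the members are therefore given as a description with no test.

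14-3-3 proteins are small acidic adaptors that work as dimers and bind other proteins at phosphorylated serine or threonine. Binding can hold a client in the cytoplasm, shield a site on it or keep an enzyme inactive, and known clients include CDC25 phosphatases, RAF kinases, BAD, FOXO factors and YAP1, the output protein of the Hippo pathway. SFN, or 14-3-3 sigma (stratifin), is the member typical of epithelial cells, where it binds keratins, and in human cells p53 induces it after DNA damage. The other members are expressed in most tissues.

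Embryos had developed in vivo. Hatched blastocysts, which have left the zona pellucida, were collected at 5.5 days after insemination, and early blastocysts at 5 days. Each of the 12 arrays, 6 per array set, carried amplified RNA of both stages, and in each array set hatched RNA was in Cy5 and early RNA in Cy3 on 3 arrays, with the dyes exchanged on the other 3. Arrays are named by the stage in Cy5 and a replicate number given in order of deposition, which pairs no arrays. The labels do not say how many embryos were pooled, which arrays share RNA, or whether replicates came from separate litters, so errors and p-values cover array-to-array spread that may be technical. For each probe and array the files give 1 log ratio, taken here as log2. Its numerator is not stated, so a value is said to be positive or negative, and neither stage is called higher. A ratio shows neither the level of a gene nor the presence of a cell type, so the blastocyst label could not be checked against markers. In bulk RNA, fewer cells of a type and less RNA per cell cannot be told apart.

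The arrays of each set fell into pairs of opposite dye orientation whose residuals went together (r of at least 0.37 over all probes of the first array set and at least 0.47 over those of the second, against at most 0.06 and 0.04 for other such combinations). Residual pair 1 was hatched in Cy5 replicate 1 with early in Cy5 replicate 2, residual pair 2 was hatched in Cy5 replicate 2 with early in Cy5 replicate 1, and residual pair 3 was hatched in Cy5 replicate 3 with early in Cy5 replicate 3. These pairs were found in the data and are not in the labels. Of each set, 4 arrays lay on 1 slide and 2 on another, and residual pairs 1 and 2 each spanned both slides.

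SFN had the widest ratios of the family on both array sets, each by a single probe (probes are given by their number in the deposited tables). On the second array set its only probe (23018, RefSeq transcript NM_001044564) lay at 2.55, 1.56 and 1.43 on the hatched in Cy5 arrays (replicates 1, 2 and 3) and at 1.81, 2.71 and 1.89 on the early in Cy5 arrays. All 6 arrays were on the positive side, and the dye orientations overlapped. The fitted ratio was 1.99 ± 0.18 (SE, n = 6 arrays), which is 3.98-fold if the log base is 2, and ranked 44 among 45220 probes from the positive end.

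The 3 SFN probes of the first array set differed. Probe 34730, annotated without an accession, lay at 2.05, 1.29 and 1.07 on the hatched in Cy5 arrays and at 1.08, 1.48 and 0.58 on the early in Cy5 arrays, again positive throughout. Its fitted ratio was 1.26 ± 0.15, rank 78 of 43794 from the positive end. The other SFN probes stayed near 0.

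Probe 38331 lay at 0.18, -0.67 and -0.02 on the hatched in Cy5 arrays and at 0.13, 0.49 and 0.37 on the early in Cy5 arrays (fitted 0.08 ± 0.11), so it was positive on 4 arrays and negative on 2. Probe 41406, which carries the same RefSeq transcript as the SFN probe of the second array set, lay at -0.26, 0.16 and -0.34 on the hatched in Cy5 arrays and at -0.20, -0.03 and -0.04 on the early in Cy5 arrays. Its fitted ratio was -0.12 ± 0.08, negative on 5 arrays. Probes with 1 shared transcript annotation thus gave 1.99 and -0.12. Across the 6 arrays the 3 SFN probes of the first array set did not run together (r from -0.39 to -0.04 over 3 combinations, given as a description). The mean of the 3 probes was 0.41 ± 0.08, so this gene mean rests on 1 probe.

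**Figure D1:**
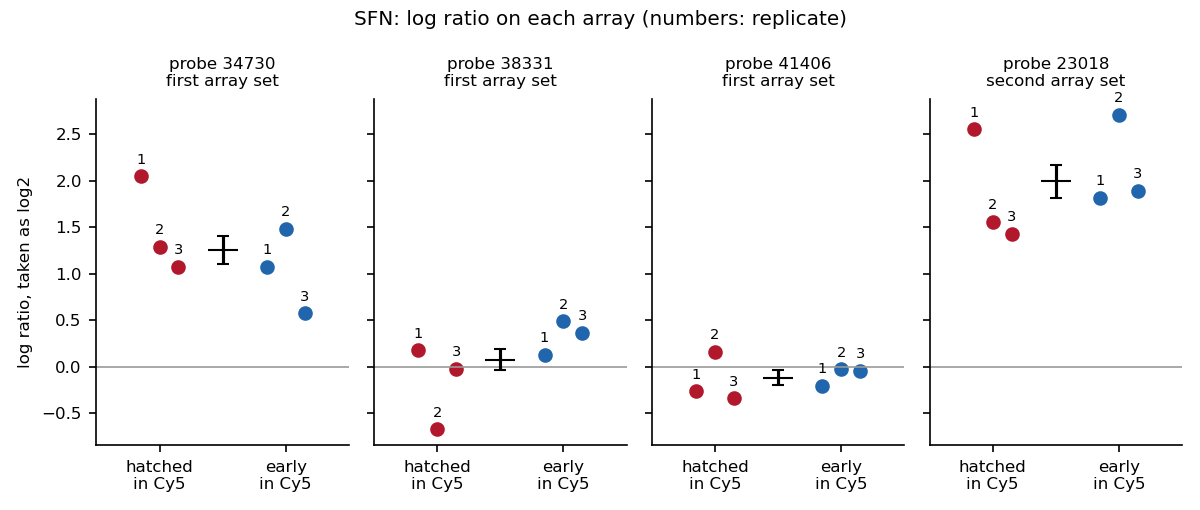
Log ratio, taken as log2, of the SFN probes on each array; points left are hatched in Cy5 arrays and points right early in Cy5 arrays, numbered by replicate, and the bar between them is the fitted ratio ± SE (n = 6 arrays). Probes 34730 and 23018 are positive on 6 of 6 arrays, at 1.26 and 1.99, whereas probes 38331 and 41406 lie at 0.08 and -0.12.

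Probes 23018 and 34730 were positive in every residual pair, whereas the other SFN probes were not. Probe 23018 averaged 2.63, 1.69 and 1.66 in residual pairs 1, 2 and 3, and probe 34730 averaged 1.76, 1.18 and 0.82. Both were thus highest in pair 1. Probe 41406 averaged -0.14, -0.02 and -0.19 and probe 38331 0.33, -0.27 and 0.17. By slide, probe 23018 averaged 1.90 over the 4 arrays of one slide and 2.18 over the 2 arrays of the other, and probe 34730 averaged 1.11 and 1.56. Leaving out 1 array at a time moved probe 23018 between 1.82 and 2.10 and probe 34730 between 1.11 and 1.37.

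Among the other members no probe reached an absolute ratio of 1. The 9 probes on the first array set lay between -0.12 and 0.28, 4 positive and 5 negative, with SEs from 0.06 to 0.20, and none was on the same side on all 6 arrays. The 13 probes on the second lay between -0.63 and 0.55, 4 positive and 9 negative, with SEs from 0.08 to 0.20, and 3 were on the same side throughout. With SFN included, 1 of 12 and 4 of 14 member probes kept to 1 side over the 6 arrays, where 7.92% and 9.95% of all probes did. The median absolute ratio of the members was 0.09 and 0.47, and that of all probes 0.07 and 0.09.

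By the fit across all probes (limma, Benjamini-Hochberg adjusted p under 0.05), 1 member probe of the first array set was called positive, SFN 34730, where 2.16% of all probes were, and 0 were called negative, where 2.48% were. At an unadjusted p under 0.05 there were 2 of 12, and 6630 of all 43794 probes. Among the 14 of the second array set 1 was called positive, SFN 23018 (2.49% of all probes), and 1 negative, YWHAZ 27988 (3.62% of all probes). Of these 14, 9 had an unadjusted p under 0.05, as did 7402 of all 45220 probes. Since this contrast chose the family, nothing is read from these counts. With the arrays averaged by residual pair to 3 values, 0 members were called on either set, where 1 and 41 of all probes were (limma). At an unadjusted p under 0.05 this fit had 2 and 4 members, and 4231 and 4946 of all probes. The YWHAZ call was lost without replicate 1 or 3 of the hatched in Cy5 arrays and without replicate 2 or 3 of the early in Cy5 arrays.

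**Figure D2:**
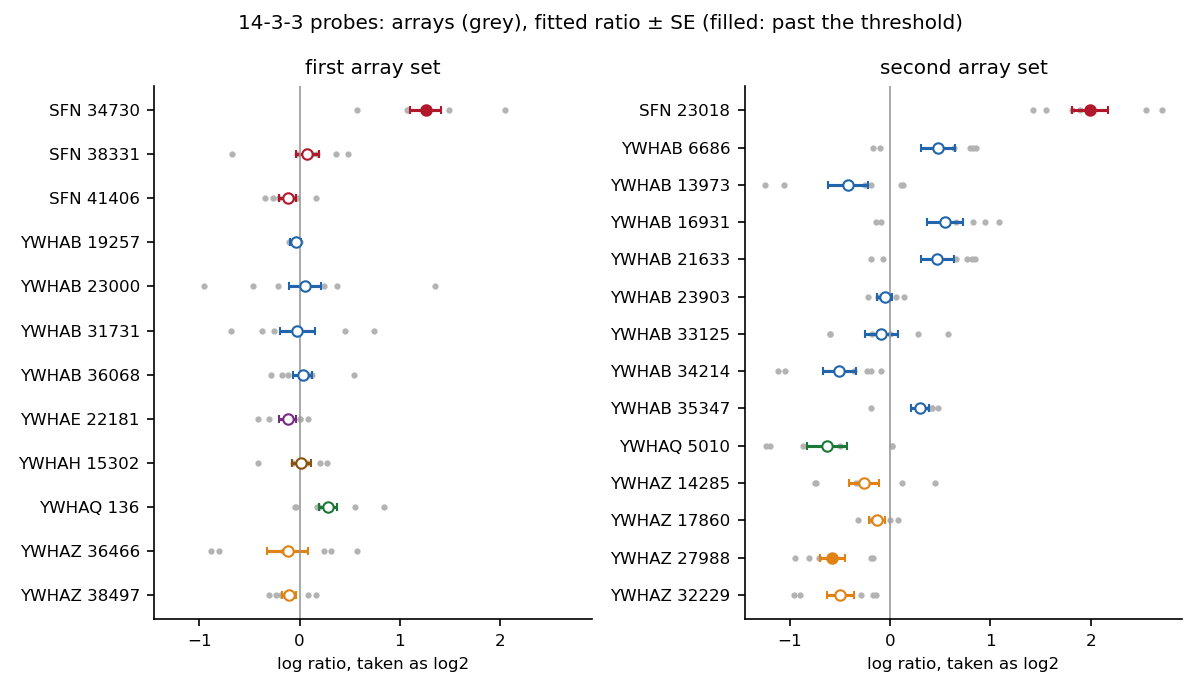
Fitted log2 ratio ± SE of each member probe (circles, n = 6 arrays; filled where the adjusted p was under 0.05) with the single arrays in grey, per array set. SFN 34730 and SFN 23018 stand to the right of every other member probe, and the remaining probes lie between -0.63 and 0.55.

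YWHAB, or 14-3-3 beta, an adaptor of RAF kinases, was measured by the most probes and gave no single ratio. Of its 8 probes on the second array set, 5 were annotated with 1 accession (AK231708), and of these 3 were positive (6686 at 0.48 ± 0.17, 16931 at 0.55 ± 0.18 and 21633 at 0.47 ± 0.17) and 2 negative (13973 at -0.42 ± 0.20 and 34214 at -0.50 ± 0.16). Probe 16931 lay at 0.82, -0.09 and 1.08 on the hatched in Cy5 arrays and at -0.14, 0.95 and 0.66 on the early in Cy5 arrays. Probe 34214 lay at -1.12, -0.18 and -0.22 on the hatched in Cy5 arrays and at -0.09, -1.05 and -0.36 on the early in Cy5 arrays. Both were closest to 0 on hatched in Cy5 replicate 2 and early in Cy5 replicate 1, which form residual pair 2.

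By pair means, the 5 probes of the accession differed least in residual pair 2. In residual pair 1 the 3 positive probes averaged from 0.81 to 0.89 and the 2 negative ones -1.15 and -1.08. In pair 2 all 5 lay between -0.14 and -0.04. In pair 3 the positive ones averaged from 0.74 to 0.87 and the negative ones -0.29 and -0.06. The 3 positive probes ran closely together over the 6 arrays (r from 0.98 to 0.99), as did the 2 negative ones (r = 0.95), and across the 2 kinds r ran from -0.65 to -0.43. These correlations are descriptions over 6 arrays that may share RNA.

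The other YWHAB probes of the second array set were smaller. Probe 35347 lay at 0.41, 0.42 and 0.48 on the hatched in Cy5 arrays and at 0.30, 0.39 and -0.18 on the early in Cy5 arrays (0.30 ± 0.09), and its partner by accession, 23903, lay at -0.05 ± 0.08. Probe 33125 had a ratio of -0.09 ± 0.16 with pair means of -0.09, 0.43 and -0.60, so its arrays disagreed in sign. Averaged over the 8 probes YWHAB lay at 0.09 ± 0.06, a mean of probes that range from -0.50 to 0.55.

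The 4 YWHAB probes of the first array set had ratios from -0.04 to 0.06. Probe 19257 was the flattest of them, at 0.01, -0.03 and -0.05 on the hatched in Cy5 arrays and at -0.02, -0.02 and -0.11 on the early in Cy5 arrays. Probe 31731, annotated with the same transcript (XM_001927254), lay at -0.02, -0.25 and 0.74 on the hatched in Cy5 arrays and at -0.68, -0.38 and 0.45 on the early in Cy5 arrays. It ran with probe 36068 (r = 0.93), and both were positive in residual pair 3, at 0.60 and 0.32, and negative in pairs 1 and 2 (pair means). The gene mean was 0.01 ± 0.11.

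**Figure D3:**
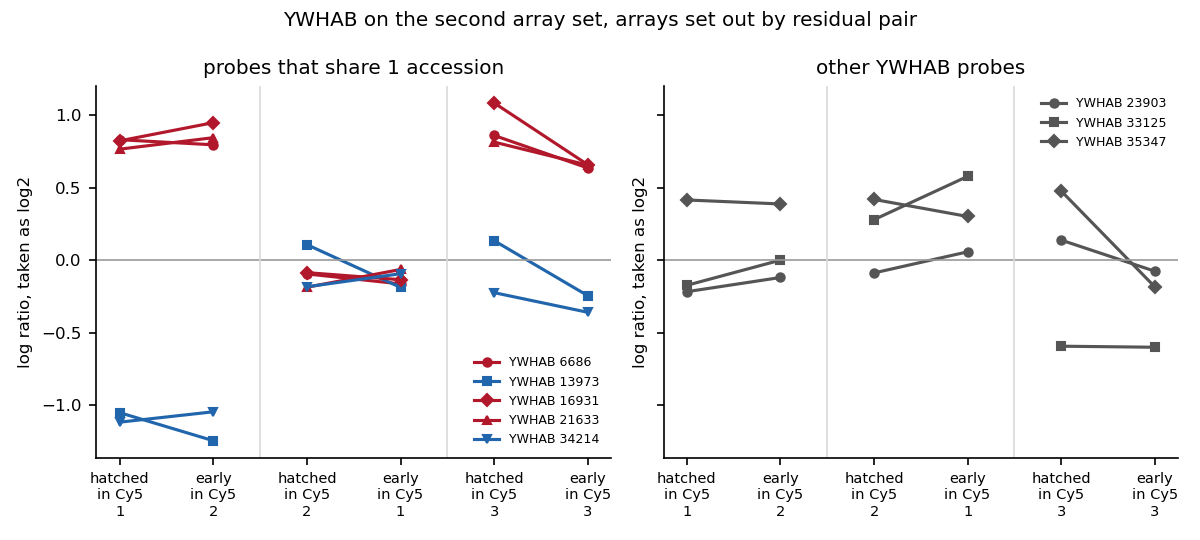
Log ratio, taken as log2, of the YWHAB probes on the second array set, with arrays set out by residual pair (hatched in Cy5 left, early in Cy5 right in each pair). Left, the 5 probes of 1 accession: 3 lie at 0.74 to 0.89 and 2 at -1.15 to -0.06 in pairs 1 and 3, and all lie within -0.14 to -0.04 in pair 2 (pair means); right, the 3 other probes.

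YWHAZ, or 14-3-3 zeta, a widely expressed member with many kinase clients, had a negative fitted ratio by each of its 6 probes. Its 4 probes of the second array set had ratios of -0.57 ± 0.12 (27988), -0.49 ± 0.13 (32229), -0.26 ± 0.15 (14285) and -0.12 ± 0.08 (17860), with a gene mean of -0.36 ± 0.11. Probe 27988 lay at -0.71, -0.19 and -0.61 on the hatched in Cy5 arrays and at -0.17, -0.81 and -0.95 on the early in Cy5 arrays, negative on all 6. Probe 32229 lay at -0.90, -0.14 and -0.29 on the hatched in Cy5 arrays and at -0.17, -0.95 and -0.50 on the early in Cy5 arrays, also negative on all 6.

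Both lay nearest to 0 in residual pair 2. The 4 YWHAZ probes ran together over the arrays (r from 0.71 to 0.95 over 6 combinations), and 3 of them carry 1 transcript annotation (XM_001927228). The probe with this annotation on the first array set, 36466, lay at -0.80, 0.57 and 0.31 on the hatched in Cy5 arrays and at 0.24, -0.88 and -0.16 on the early in Cy5 arrays (-0.12 ± 0.20). It averaged -0.84 in pair 1, 0.41 in pair 2 and 0.08 in pair 3. The second YWHAZ probe there, 38497, had a ratio of -0.10 ± 0.07 and ran with it (r = 0.85).

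YWHAQ, or 14-3-3 theta, known from T cells but widely expressed, lay on opposite sides on the 2 array sets. Its probe 5010 of the second array set lay at -1.24, 0.02 and -0.50 on the hatched in Cy5 arrays and at 0.02, -1.20 and -0.87 on the early in Cy5 arrays, with a fitted ratio of -0.63 ± 0.20, the lowest of the family. Its pair means were -1.22, 0.02 and -0.69, and the arrays of a pair differed by 0.14 on average. Probe 136 of the first array set lay at 0.20, 0.56 and 0.84 on the hatched in Cy5 arrays and at -0.05, -0.04 and 0.17 on the early in Cy5 arrays, with a fitted ratio of 0.28 ± 0.09. The difference between the array sets was not tested.

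**Figure D4:**
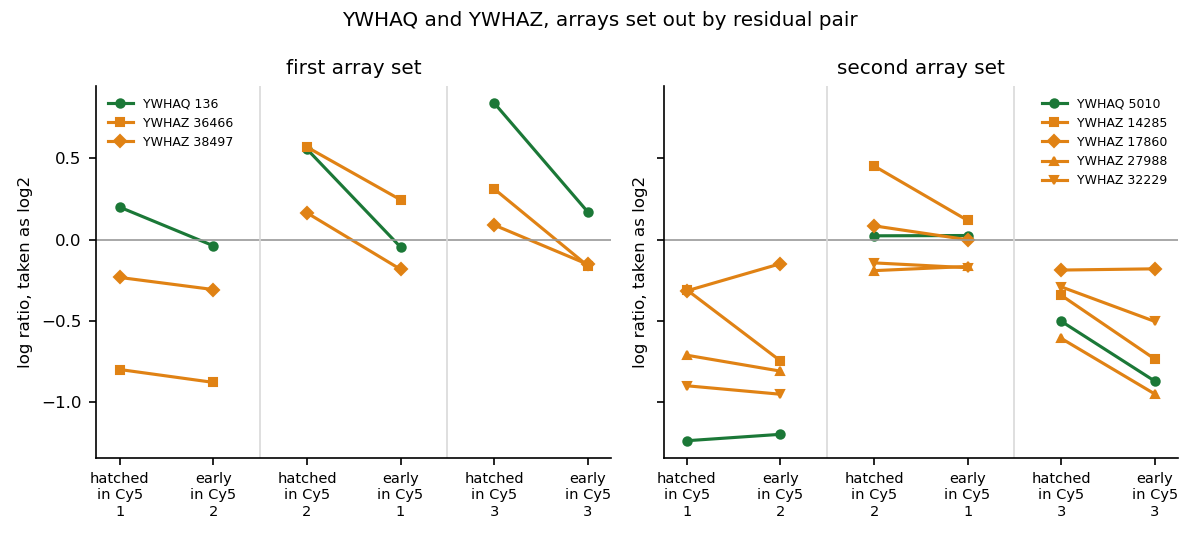
Log ratio, taken as log2, of the YWHAQ and YWHAZ probes, with arrays set out by residual pair (hatched in Cy5 left, early in Cy5 right in each pair). On the second array set all 5 probes have negative means in pairs 1 and 3, and YWHAQ 5010 lies at -1.22, 0.02 and -0.69 (pair means); on the first, YWHAQ 136 is positive at 0.28 and the YWHAZ probes lie at -0.12 and -0.10.

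YWHAE, or 14-3-3 epsilon, which binds CDC25 phosphatases, was measured on the first array set by probe 22181. It lay at 0.01, -0.30 and -0.09 on the hatched in Cy5 arrays and at -0.41, 0.01 and 0.08 on the early in Cy5 arrays (-0.12 ± 0.08), with its 2 lowest values in residual pair 2. YWHAH, or 14-3-3 eta, was measured by probe 15302 at -0.41, 0.05 and 0.27 on the hatched in Cy5 arrays and at 0.07, 0.20 and -0.06 on the early in Cy5 arrays (0.02 ± 0.09). Each gene had 3 or 4 positive arrays of 6. Ordered by gene mean, the first array set ran SFN 0.41, YWHAQ 0.28, YWHAH 0.02, YWHAB 0.01, YWHAZ -0.11 and YWHAE -0.12, and neighbours below YWHAQ differed by less than the larger of their SEs. The second ran SFN 1.99, YWHAB 0.09, YWHAZ -0.36 and YWHAQ -0.63, each neighbour apart by more than the larger of the SEs.

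How far the arrays of 1 residual pair agreed differed between the sets. On the second array set the arrays of a pair differed by a median of 0.15 over the 14 member probes, while pair means ranged over a median of 0.94. Of these probes, several of which share an accession, 13 of 14 varied more between pairs than within them. How many of all probes did so was not counted. The medians over all probes of that set were 0.28 and 0.30. On the first array set they were 0.32 and 0.47 for the 12 members and 0.26 and 0.26 for all probes. The count of member calls on the second array set moved with the pair left out. It was 4 positive and 5 negative without pair 2 (4.85% and 7.2% of all probes), the pair in which most of these members lay near 0, 1 and 0 without pair 1 (0.436% and 0.747%), and 1 and 0 without pair 3 (0.473% and 0.641%). Leaving out hatched in Cy5 replicate 2 alone gave 4 positive and 1 negative (2.96% and 4.44% of all probes). Leaving out early in Cy5 replicate 1 alone gave 1 and 2 (2.4% and 3.65%). The pairs were found in these data and the contrast chose the family, so nothing is read from these counts either.

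The dye term, which the choice of the family did not use, was tested for every probe (limma, adjusted over all probes of a set). Of the member probes 0 of 12 and 0 of 14 passed, where 3.03% and 0.00663% of all probes did. At an unadjusted p under 0.05 there were 2 of the 12 and 0 of the 14, against 23.5% and 15.4% of all probes. The largest dye difference was that of YWHAB 23000 on the first array set, which averaged -0.54 on the hatched in Cy5 arrays and 0.66 on the early in Cy5 arrays, a difference of -1.20 ± 0.32 (limma adjusted p = 0.0800). Its single values were -0.46, -0.95 and -0.21 with hatched in Cy5 and 0.24, 0.37 and 1.35 with early in Cy5, so the orientations did not overlap. For SFN the difference was 0.42 ± 0.31 by probe 34730 (adjusted p = 0.444) and -0.29 ± 0.35 by probe 23018 (adjusted p = 0.740).

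The genes whose ratios lay closest to those of SFN over the 6 arrays were found by the root mean square distance between gene means. Among 4271 candidate genes of the second array set they were the glycolytic gene GAPDH (distance 0.489, ratio 2.18), the apolipoprotein gene APOA1 (0.523, ratio 1.54), the glutathione peroxidase gene GPX1 (0.599, ratio 1.42), GULO, which encodes the last enzyme of vitamin C synthesis (0.639, ratio 1.45), and the glucose transporter gene SLC2A8 (0.646, ratio 1.51). Their r with SFN over 6 arrays ran from 0.53 for SLC2A8 to 0.95 for GPX1. On the first array set, where the SFN mean rests on 1 of 3 probes, they were SLC27A4, a fatty acid transporter (distance 0.0960), PLA2G7 (0.106), SLC2A8 (0.118), PACSIN3 (0.119) and the sialidase gene NEU1 (0.120), with ratios from 0.36 to 0.45. SLC2A8 was in both sets of 5.

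Partners of 14-3-3 proteins, genes that act on SFN with p53 and its targets, epithelial genes and markers of other cells were described by 8 lists. The lists were chosen with earlier results of these data known, so their calls and adjusted p-values are given as a description. Together 105 of their genes were measured on the first array set, with 5 called positive, 5 called negative and a median ratio of -0.0035, where of 11913 genes 2.38% passed on the positive side and 2.38% on the negative. On the second, 73 were measured, 5 called positive and 6 negative with a median of -0.02, where 5.27% of 4531 genes were positive and 5.72% negative. Of the 5 positive calls there, 3 were markers of other cells. The medians of all genes were 0.0027 and 0.0050. Of 61 list genes measured on both sets, 33 lay on the same side.

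Cell death and growth clients were called on the negative side alone, though 9 of 20 and 6 of 14 lay above 0 on the 2 array sets. The list medians were -0.05 and -0.01. On the first array set 3 of 20 were called, BAD, which 14-3-3 proteins hold inactive when it is phosphorylated, at -1.52 ± 0.16 (n = 6 arrays, limma adjusted p = 0.00407), BID, another cell death gene, at -0.67 ± 0.11 and the kinase gene BRAF at -0.34 ± 0.07 (adjusted p = 0.0402). With residual pairs as a random block, whose correlation was estimated, the BRAF call was lost (adjusted p = 0.0653). On the second 2 of 14 were called, BID at -0.39 ± 0.06 and the transcription factor gene FOXO1 at -0.42 ± 0.08 (adjusted p = 0.0175). The 3 FOXO1 probes ranged from -1.26 to 0.02, so its mean rests largely on 1 probe, and the 2 BID probes of that set lay at -0.72 and -0.05. FOXO1 lay at 0.03 ± 0.06 on the first array set without passing. BAD was negative on 6 of 6 arrays.

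Of the cell cycle clients 0 of 9 were called among those of the first array set and 2 of 11 of the second, with list medians of 0.03 and -0.16. The cyclin gene CCNB1, whose complex with CDK1 SFN holds in the cytoplasm in human cells, lay at -0.73 ± 0.13 (adjusted p = 0.0133), and CDK4 at 0.54 ± 0.13 (adjusted p = 0.0351), with 1 of its 2 probes at 0.08. CDC25C, the phosphatase that activates that complex, lay at 0.05 ± 0.05 and 0.26 ± 0.13 on the 2 array sets without passing. In the Hippo pathway 0 of 14 genes passed on the first array set and 2 of 8 on the second, LATS2, a kinase that marks YAP1 for 14-3-3 binding, at -0.41 ± 0.10 (adjusted p = 0.0387), and its partner SAV1, an activator of the upstream kinases, at -0.29 ± 0.06 (adjusted p = 0.0239). Both Hippo calls were lost with residual pairs as a random block (adjusted p = 0.0795 and 0.0640). The 6 SAV1 probes ranged from -0.96 to 0.07. YAP1 itself lay at -0.12 ± 0.12 on the first array set without passing.

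Polarity and cytoskeleton partners had 2 positive and 1 negative call among 16 on the first array set. MARK2, a polarity kinase, lay at 0.98, 0.29 and 0.73 on the hatched in Cy5 arrays and at 0.42, 1.19 and 1.42 on the early in Cy5 arrays (0.84 ± 0.14, adjusted p = 0.0207). The junction gene CGN lay at 0.49 ± 0.09 by probes at -0.16 and 1.14, and the GTPase gene CDC42 at -0.63 ± 0.12 (adjusted p = 0.0310). The CGN call was lost with residual pairs as a random block (adjusted p = 0.0721), which leaves 1 positive call. On the second array set 0 of 7 passed. Of p53, its targets and proteins that act on SFN, 1 of 9 passed on the first, the desmosomal p53 target gene PERP at 0.46 ± 0.09 (adjusted p = 0.0285, positive on 6 of 6 arrays), and 0 of 6 on the second. Nuclear clients had 0 calls among 8 and 3 genes.

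Keratins and epithelial genes, the list nearest to the known partners of SFN, had 2 positive and 1 negative call among 13 genes on the first array set and 1 and 1 among 8 on the second. Of these genes, 4 of 13 and 4 of 8 lay above 0, with list medians of -0.06 and -0.03. EPCAM lay at -0.56 ± 0.42 on the first and -0.65 ± 0.28 on the second, and KRT19 at -0.0035 ± 0.08 on the first, all without passing. KRT8, a keratin of simple epithelium and of trophectoderm, lay at 0.76 ± 0.14 on the first and 0.72 ± 0.16 on the second. The KRT8 values on the second array set were 1.32, 0.55 and 0.48 on the hatched in Cy5 arrays and 0.39, 1.24 and 0.34 on the early in Cy5 arrays. They were highest in residual pair 1 like those of SFN 23018. Values farthest from 0 in that pair were not particular to these genes, as EPCAM lay there at -1.51 and -1.69. KRT5, a keratin of stratified epithelium, lay at -0.51 ± 0.09 on the second (limma adjusted p = 0.0152) and at -0.03 ± 0.07 on the first without passing. KRT18 lay at 0.67 ± 0.19 on the second array set without passing (limma adjusted p = 0.0616). On the first array set KRT18 lay at 0.50 ± 0.11, a call lost with residual pairs as a random block (adjusted p = 0.0783). The claudin gene CLDN4 lay at -0.86 ± 0.08 there, by probes at -1.71 and -0.0074, and at 0.10 ± 0.09 on the second array set without passing.

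Markers of oviduct and uterine epithelium, cumulus cells and blood, which could come along with embryos, had 0 of 16 calls on the first array set, with 13 ratios above 0, a range of -0.11 to 0.60 and a median of 0.04. On the second they had 3 positive calls of 16, with 10 above 0, a range of -0.15 to 2.97 and a median of 0.03. UPTI, a protease inhibitor of the uterus that the embryo may also express, lay at 4.43, 1.83 and 2.34 on the hatched in Cy5 arrays and at 2.11, 4.46 and 2.65 on the early in Cy5 arrays of the second array set (2.97 ± 0.40, adjusted p = 0.00496). On the first array set UPTI lay at 0.60 ± 0.16 without passing. On the second it was highest in residual pair 1, as were SFN 23018 and the GAPDH mean. AMH (0.35 ± 0.08) and STAR (0.27 ± 0.07), hormone and steroid transport genes of granulosa cells, also passed. Both calls were lost with residual pairs as a random block (adjusted p = 0.0645 and 0.106), and their probes ranged from -0.05 to 1.16 and from -0.05 to 1.07. The granulosa genes CYP11A1 (0.23 ± 0.07, by probes from -0.31 to 1.47), CYP19A1 (0.06 ± 0.08), FSHR (-0.08 ± 0.07) and INHBA (-0.15 ± 0.08) did not pass. Neither did the oviduct gene OVGP1 (0.22 ± 0.11) or the leukocyte gene PTPRC (-0.06 ± 0.08). On the first array set AMH (0.55 ± 0.16), STAR (0.15 ± 0.09), FSHR (0.05 ± 0.07) and INHBA (0.02 ± 0.06) were positive without passing. The part of other cells in the SFN ratio was not tested.

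**Figure D5:**
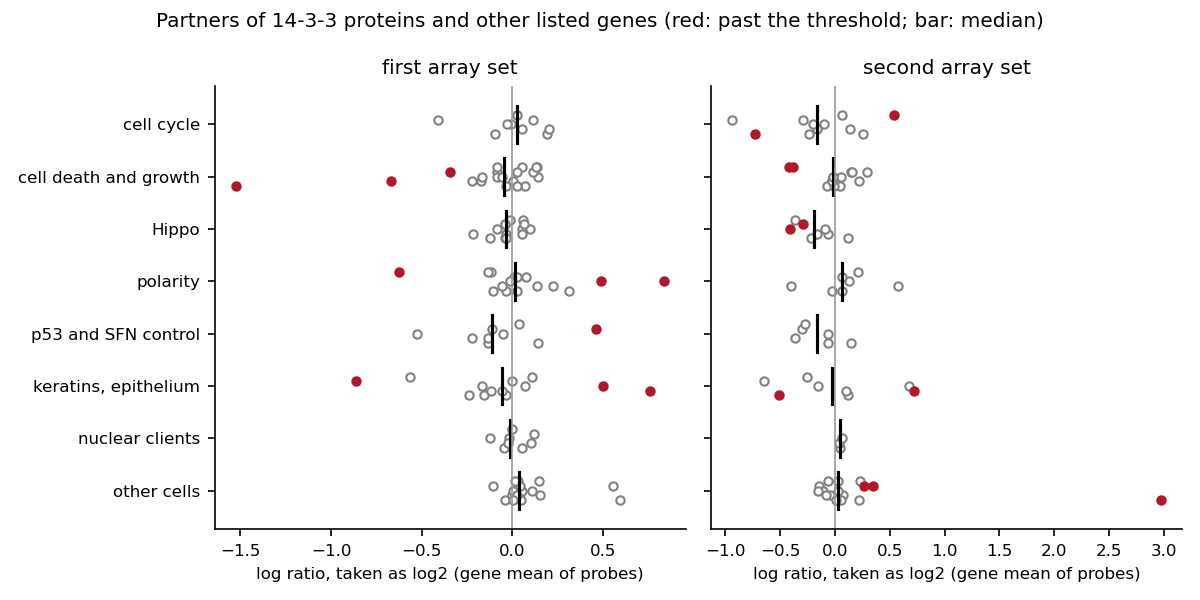
Log ratio, taken as log2, of each measured gene (mean of its probes over 6 arrays) in 8 lists of 14-3-3 partners, epithelial genes and markers of other cells, per array set; red points passed an adjusted p of 0.05 and the bar is the list median. BAD lies farthest left at -1.52 on the first array set and UPTI farthest right at 2.97 on the second, and every list median lies between -0.19 and 0.06.

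Most list calls rested on the full set of arrays. With single arrays left out in turn, 8 of the 10 genes called on the first array set and 9 of the 11 of the second lost their call at least once, the exceptions being BAD, CLDN4, BID on the second array set and UPTI. The highest adjusted p came without early in Cy5 replicate 3 for BID (0.0793), PERP (0.116), CDC42 (0.125) and KRT18 (0.176), without early in Cy5 replicate 2 for MARK2 (0.0867), KRT8 (0.0867) and BRAF (0.155), and without hatched in Cy5 replicate 3 for CGN (0.114), all on the first array set. On the second it came without hatched in Cy5 replicate 1 for FOXO1 (0.0704), KRT8 (0.0760) and LATS2 (0.124), and without early in Cy5 replicate 2 for KRT5 (0.0634), SAV1 (0.0935) and STAR (0.155). It came without early in Cy5 replicate 3 for CCNB1 (0.0505) and AMH (0.104), and without hatched in Cy5 replicate 3 for CDK4 (0.124). Leaving out single arrays keeps the other array of a residual pair in the fit. Averaging the residual pairs, which removed every member call, was not run for the list genes.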

How the data were processed

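RNA was isolated by PicoPure, went through 2 rounds of T7 amplification and received Cy3 or Cy5 by a chemical reaction, per the labels' protocols. The deposited values are 1 log ratio for each probe on each array, whose log base, background correction, normalization and direction are not stated in the labels or files used. These deposited values were taken as log2, because the second array set holds values at -12.7 and 12.2. Values are deposited to 9 decimals (hatched in Cy5) or 6 significant digits (early in Cy5). Over 3817 genes on both array sets the mean ratio correlated at 0.49 and the dye difference at 0.18, so values were taken as turned to 1 direction and used as they stand. Array medians lay between -0.0061 and 0.0105. The lowest r between arrays of a set was -0.17.

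Members were found by platform symbol, and updating accessions added or removed 0 probes. For other genes, old symbols were replaced from RefSeq gene tables (Sscrofa11.1, names only). On the first and second array set 18121 and 10290 probes had 1 symbol, 0 had several and 25673 and 34930 were unnamed. Probes of a gene were averaged for gene values.

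The linear model (lmFit and eBayes of limma 3.58.1, R 4.3.3) was run separately for the 2 array sets and held the stage ratio and a dye term (hatched in Cy5 minus early in Cy5), 2-sided, adjusted over all probes or all genes, at a threshold of 0.05. The fit was tested on simulated data with noise drawn independently for each array, so that test does not cover the residual pairs. The number of arrays limits the precision. Members and gene lists were chosen with earlier results of these data known. Named list genes are up to 4 per list and array set past the threshold with the smallest p, and 5 genes per array set for likeness to SFN. YAP1, CDC25C, EPCAM, KRT19, CYP11A1, CYP19A1, FSHR, INHBA, OVGP1 and PTPRC were named in addition, after their values were seen. Alternatives covered the dye term, slide, residual pairs, centring, sign, probe averaging, robust eBayes and left-out arrays.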

Additional observations from a re-analysis of the deposited data

Results flagged for a closer look

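Over the 6 arrays of a set, 26 member probes were searched for an array that stands apart from the others (Dixon's criterion, which chance meets in about 1 in 20 groups), and 1 had one. YWHAB 35347 on the second array set lay at -0.18 on early in Cy5 replicate 3 and between 0.30 and 0.48 on the other 5 arrays.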

How the results depend on the processing

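In this balanced design a member's ratio is by construction the same without the dye term, with slide or residual pairs as a block and with pairs averaged, and leaving out 1 array of 6 can move it little. Its largest moves came from turning the sign of the early in Cy5 arrays, where 9 ratios moved by the SD over arrays or more and SFN 34730 lay at 0.21, SFN 23018 at -0.15, YWHAZ 27988 at 0.0690, 32229 at 0.0490 and 38497 at 0.11, YWHAQ 5010 at 0.0545, and YWHAB 19257 at 0.0130, 21633 at -0.0072 and 34214 at -0.0044. With that sign the fitted value is by construction set by the dye difference, so its test repeats that of the dye term. Again 0 members were called on either array set, where 1327 and 3 of all probes were. At an unadjusted p under 0.05 in limma there were 2 and 0 members, and 10279 and 6958 of all probes. Averaging the residual pairs to 3 values, a fit with fewer samples, also left 0 positive and 0 negative member calls (1 and 41 of all probes called). At an unadjusted p under 0.05 in limma that fit had 2 and 4 members, and 4231 and 4946 of all probes. The 1 negative call of the second array set became 0 with slide as a fixed block (2.41% of all probes) and without residual pair 1 or 3 (0.747% and 0.641%). Without residual pair 2 the counts were 4 positive and 5 negative (4.85% and 7.2% of all probes). Leaving out 1 array gave 1 to 4 positive and 0 to 2 negative calls there, and 1 and 0 on the first array set. Of all probes these fits called 1.16% to 2.96% positive and 1.73% to 4.44% negative on the second array set. On the first they called 0.687% to 2.57% positive and 0.863% to 3.01% negative. Dye calls stayed at 0 under every alternative run.

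List genes of the first array set, with 5 positive and 5 negative calls, had 3 and 4 with residual pairs as a random block (consensus correlation 0.38 for probes; BRAF, KRT18 and CGN lost) and ran from 0 to 4 and 2 to 5 with 1 array left out. The 5 and 6 of the second set were 3 and 4 with the block (0.35; SAV1, LATS2, AMH and STAR lost), 2 positive with the median of a gene's probes, and 1 to 7 and 2 to 7 with 1 array left out. The cause was not tested. Without channel intensities, signal over background is unknown for every probe here.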
